A study of Mus musculus with 6 samples.

Results

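The genes described here encode carriers that move amino acids and transmitters across membranes: the rows of the expression table whose symbol belongs to the Slc1, Slc6, Slc7, Slc17 or Slc38 family. These families held 48 rows. The rule left out Slc1a2, Slc1a3, Slc7a11 and Slc17a6, so 44 genes of the 16060 rows in the table remained, and all 44 were found in the GENCODE M21 annotation of mouse. The RNA came from the hippocampus of adult male C57BL/6 mice, with 3 libraries labelled Control and 3 labelled MA. The Control mice were injected intraperitoneally with saline. The MA mice received methamphetamine (MA), a stimulant drug, at 5 mg/kg in week 1, 10 mg/kg in week 2 and 15 mg/kg in week 3, and were killed after behavioral tests on day 22. Each library is taken as 1 mouse, and the comparison asked how hippocampal RNA differed after this escalating course of MA.

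Transmitters that are released at a synapse are taken back up by plasma membrane carriers driven by the sodium gradient, and they are loaded into vesicles by carriers driven by protons. Slc1 proteins take up glutamate and neutral amino acids, Slc6 proteins take up GABA, glycine, monoamines and related solutes, and the Slc17 family includes the vesicular glutamate carriers. Slc38 proteins carry glutamine between astrocytes and neurons, where it refills the glutamate and GABA pools, and Slc7 proteins carry cationic amino acids or, bound to a heavy chain, exchange larger ones. MA is known for acting on the carriers of dopamine and serotonin, Slc6a3 and Slc6a4, and on the vesicular monoamine carrier.

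The deposited values were logarithms and were taken as log2(RPKM + 1), where RPKM is the number of reads relative to gene length and to the size of the library. Levels below are either this log2 value or its back-transformed RPKM, and differences are the MA mean minus the Control mean on the log2 scale, which understates the change of low genes. A gene was tested when its back-transformed value was at least 0.5 RPKM in at least 3 libraries. This held for 13321 genes and for 35 of the 44 carriers, and every tested carrier reached that level in libraries of both groups. Slc6a12 only just passed: it stood at 0.664, 0.158 and 0.420 RPKM in the Control libraries. In the MA libraries it stood at 0.709, 1.35 and 0.196 RPKM, so the MA libraries supplied most of its passing values. In hippocampal tissue, fewer cells of a type and less RNA per cell cannot be told apart.

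The tissue label and the libraries were checked first. No gene was targeted, so no removed or added gene marks the groups. Each direction below holds by the labels as deposited and would turn if these were exchanged. The immediate early genes Fos, Arc, Egr1 and Nr4a1, which stimulant drugs are known to induce acutely, were lower in the libraries labelled MA, with differences of -1.45 to -1.80 and no overlap (limma, adjusted p from 0.0181 to 0.0315). The study reports the opposite: its RNA-seq and its qPCR had all of these genes higher in MA. Whether the labels of the deposited columns are exchanged was not tested. All 8 marker genes of hippocampal granule and pyramidal neurons were present in every library, with a summed level of 214 to 286 RPKM in the Control libraries and 198 to 223 RPKM in the MA libraries. In 7 of the 8 the mean was lower in MA. The median difference of the 8 was -0.15, against -0.010 for all tested genes, and Neurod6 (-0.43) and Wfs1 (-0.30) were lower in MA without overlap. The choroid plexus lies in the ventricles next to the hippocampus. Its 7 marker genes summed to 65.7 to 421 RPKM in the Control libraries and to 1777 to 5077 RPKM in the MA libraries. The groups did not overlap in any of the 7, and none was at 0 in any library. The 7 thalamus markers summed to 27.3, 23.0 and 28.1 RPKM in Control replicates 1 to 3 and to 51.7, 69.0 and 21.9 RPKM in MA replicates 1 to 3, with none at 0. The 8 meningeal markers summed to 37.7 to 47.5 RPKM in the Control libraries and to 80.5 to 105 RPKM in the MA libraries, again with none at 0, but only Dcn (1.31) and Igf2 (1.26) separated the groups, and the other 6 overlapped with differences of -0.14 to 0.16. MA replicate 3 stood apart: it listed 0 genes at 0, against 259 to 437 in the others, and was the highest or lowest library in 55.4% of the tested genes. In the 35 tested carriers it was the highest or lowest library in 15 (42.9%). MA replicate 1 was so in 16 (45.7%, against 38.2% of all tested genes) and Control replicate 1 in 14 (40.0%, against 32.4%). MA replicate 3 was the lowest library in 11 of the carriers and the highest in 4. The main counts below are therefore also given without it.

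RefSeq start sites were at hand for 32 of the 44 carriers, as 51 windows of 300 bases on GRCm38.p6, most of each before the start. The windows at the annotated 5′ ends of Slc17a8 and Slc1a1 are printed because these are the 2 carriers with a lower mean in MA and an unadjusted p under 0.05, described below. The window of Slc38a6 is printed because it alone among the 51 held the full cAMP response element TGACGTCA, in capitals, which was present in 1.79% of all 32851 windows. Motifs were searched on both strands as exact letters. Slc17a8 has a second window at chr10:89599766-89600065, which is not printed. The printed Slc17a8 window lies at chr10:89621200-89621499 on the minus strand, the Slc1a1 window at chr19:28834885-28835184 on the plus strand and the Slc38a6 window at chr12:73286598-73286897 on the plus strand.
Slc17a8: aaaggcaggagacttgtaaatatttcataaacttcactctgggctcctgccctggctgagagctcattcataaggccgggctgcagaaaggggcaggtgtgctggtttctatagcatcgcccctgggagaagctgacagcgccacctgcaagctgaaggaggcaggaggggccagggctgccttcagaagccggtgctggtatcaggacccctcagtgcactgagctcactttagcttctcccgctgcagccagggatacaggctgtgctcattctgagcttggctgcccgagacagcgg
Slc1a1: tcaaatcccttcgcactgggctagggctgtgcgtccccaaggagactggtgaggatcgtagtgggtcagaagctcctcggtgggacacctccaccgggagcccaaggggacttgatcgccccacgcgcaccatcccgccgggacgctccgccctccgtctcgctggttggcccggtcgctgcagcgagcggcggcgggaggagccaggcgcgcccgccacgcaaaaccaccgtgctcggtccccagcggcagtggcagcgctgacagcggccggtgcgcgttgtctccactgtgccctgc
Slc38a6: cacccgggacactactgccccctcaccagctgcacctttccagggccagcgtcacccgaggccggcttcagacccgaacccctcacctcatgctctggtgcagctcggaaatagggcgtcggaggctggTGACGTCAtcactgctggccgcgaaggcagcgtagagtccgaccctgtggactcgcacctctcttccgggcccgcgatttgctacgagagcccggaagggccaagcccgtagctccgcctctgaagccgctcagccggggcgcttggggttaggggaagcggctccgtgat
The windows of Slc17a8 (both of them) and Slc1a1 held none of the 4 motifs searched. The other motifs were the core TGATGNAA of the amino acid response element, found in 3 of the 51 carrier windows (Slc1a4 and Slc7a7) and in 3.97% of all windows, the AP-1 site TGANTCA, found in 7 carrier windows and 7.81% of all, and the E-box CACGTG, found in 7 carrier windows and 7.15% of all. These are matches of letters and not binding sites.

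The carriers were well represented in the hippocampus. The tested ones had a median level of 13.6 RPKM, against 8.65 RPKM for all tested genes, and 19 of the 35 exceeded 10 RPKM. Slc17a7, the vesicular glutamate carrier VGLUT1 of cortical and hippocampal excitatory neurons, led at 587 RPKM and held 51.9% of the summed signal of the 44 carriers. Slc6a17, a vesicular carrier of neutral amino acids, stood at 96.2 RPKM. Slc6a11, the astrocytic GABA carrier, stood at 32.8 RPKM. Of the 34 neighbouring pairs in this order, 31 overlapped in their 6 libraries. The 3 pairs without overlap included the step from Slc17a7 to Slc6a17 and that from Slc6a13 (3.52 RPKM) to Slc7a2 (2.45 RPKM).

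**Figure D1:**
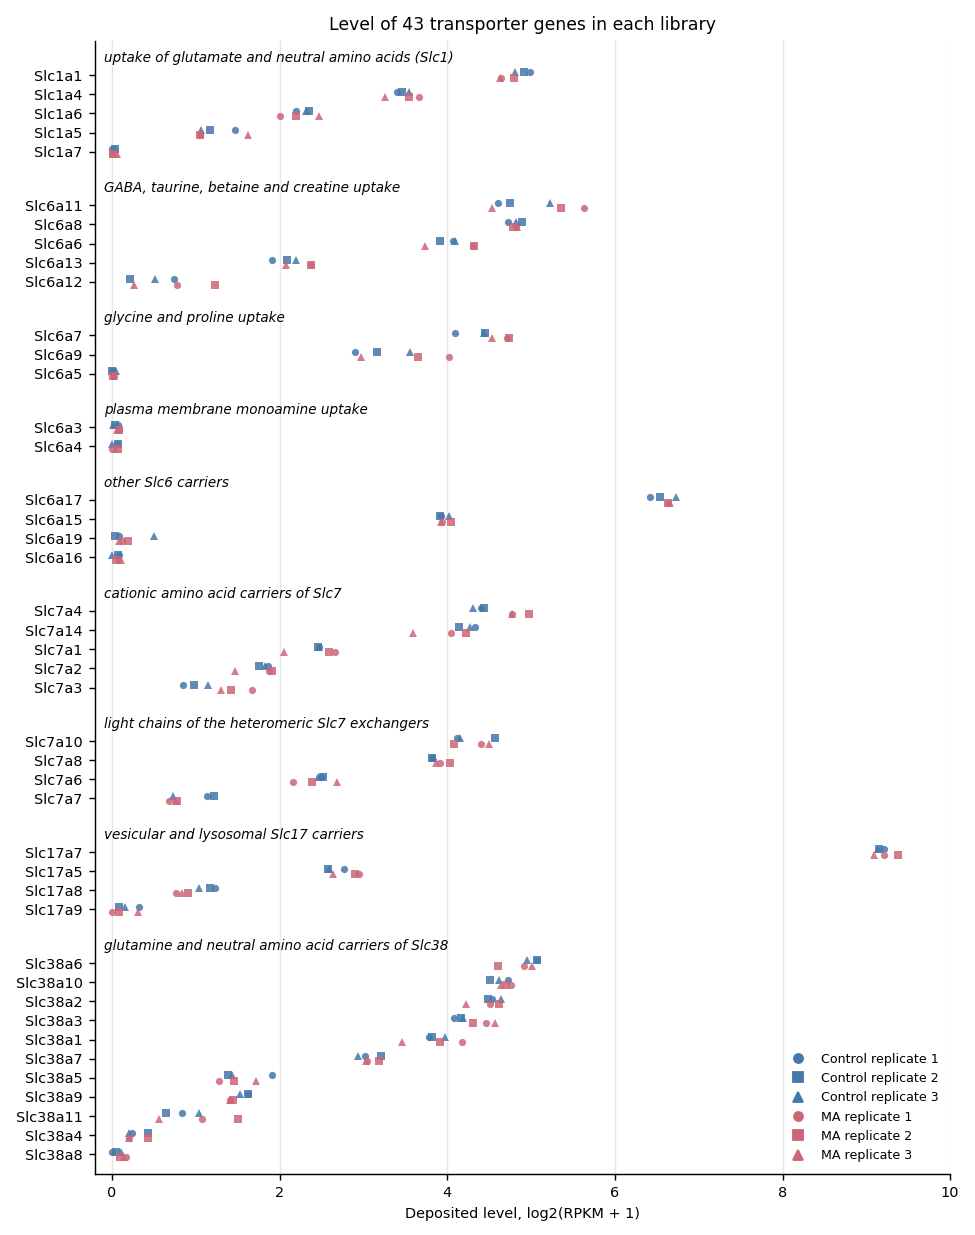
Deposited level, log2(RPKM + 1), of 43 carrier genes on the x axis, grouped by role, with 1 symbol per library (blue Control, red MA, shape for the replicate). Slc17a7 lies above 9 in all 6 libraries, the 2 monoamine carriers lie near 0, and the symbols of both groups overlap for most genes.

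Across the carriers no difference between MA and Control passed the test. In the limma fit, with p-values adjusted over all 13321 tested genes by the Benjamini-Hochberg method, 0 of the 35 tested carriers had an adjusted p under 0.05, against 0.263% of all tested genes. At an unadjusted p under 0.05 there were 6 carriers (17.1%), against 10.4% of all tested genes. Of these 6, the means of Slc7a4, Slc7a3, Slc38a3 and Slc6a7 were higher in MA (11.4% of the tested carriers, against 4.99% of all genes), and those of Slc17a8 and Slc1a1 were lower (5.71%, against 5.46%). In 8 carriers (22.9%) the 3 MA libraries did not overlap the 3 Control libraries, against 17.5% of all tested genes. In 5 of these 8 the MA libraries were higher (14.3%, against 7.32% of all genes) and in 3 they were lower (8.57%, against 10.2%). Leaving out single libraries moved the count of 6 by over 1.5 times in 3 cases. It was 2 without Control replicate 1 (5.71% of the tested carriers, against 6.22% of all tested genes). Without MA replicate 1 it was 3 (8.57%, against 8.69%), so in both cases the carriers lay near the share of all genes. Without MA replicate 3 it was 14. The 14 were 40.0% of the tested carriers, and 23.3% of all tested genes had an unadjusted p under 0.05 in that fit. Of the 14, 12 had a higher mean in MA and 2 a lower one. The 12 were 34.3% of the tested carriers, against 11.9% of all tested genes with such a p and a higher mean. The 2 were 5.71%, against 11.4% with such a p and a lower mean. In the same fit 21 carriers (60.0%) did not overlap between the groups, against 42.9% of all tested genes, and 0 had an adjusted p under 0.05, against 1.93% of all. With limma's sample quality weights, which gave MA replicate 3 a weight of 0.194, 1 carrier had an adjusted p under 0.05, against 4.4% of all tested genes, and 16 (45.7%) an unadjusted one, against 26.3% of all.

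The differences were small. They ran from -0.31 for Slc17a8 to 0.48 for Slc7a3, with 0 carriers over 0.5 in size and 24 under 0.25. These sizes depend on the offset of 1 for low genes: with a pseudocount of 0.1 on the back-transformed values, 4 carriers exceeded 0.5 in size (Slc7a3 at 0.78, Slc6a12 at 0.59, Slc17a8 at -0.57 and Slc7a7 at -0.54) and 22 were under 0.25. The median difference of the 35 carriers was 0.035, against -0.010 for all tested genes, and it was 0.11 without MA replicate 3. The median size of a difference was 0.114, the median of all tested genes was 0.112 and the median standard error of a carrier's difference was 0.13. In 21 carriers (60.0%) the mean was higher in MA, against 47.3% of all tested genes, and without MA replicate 3 in 23 (65.7%), against 48.5%.

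**Figure D2:**
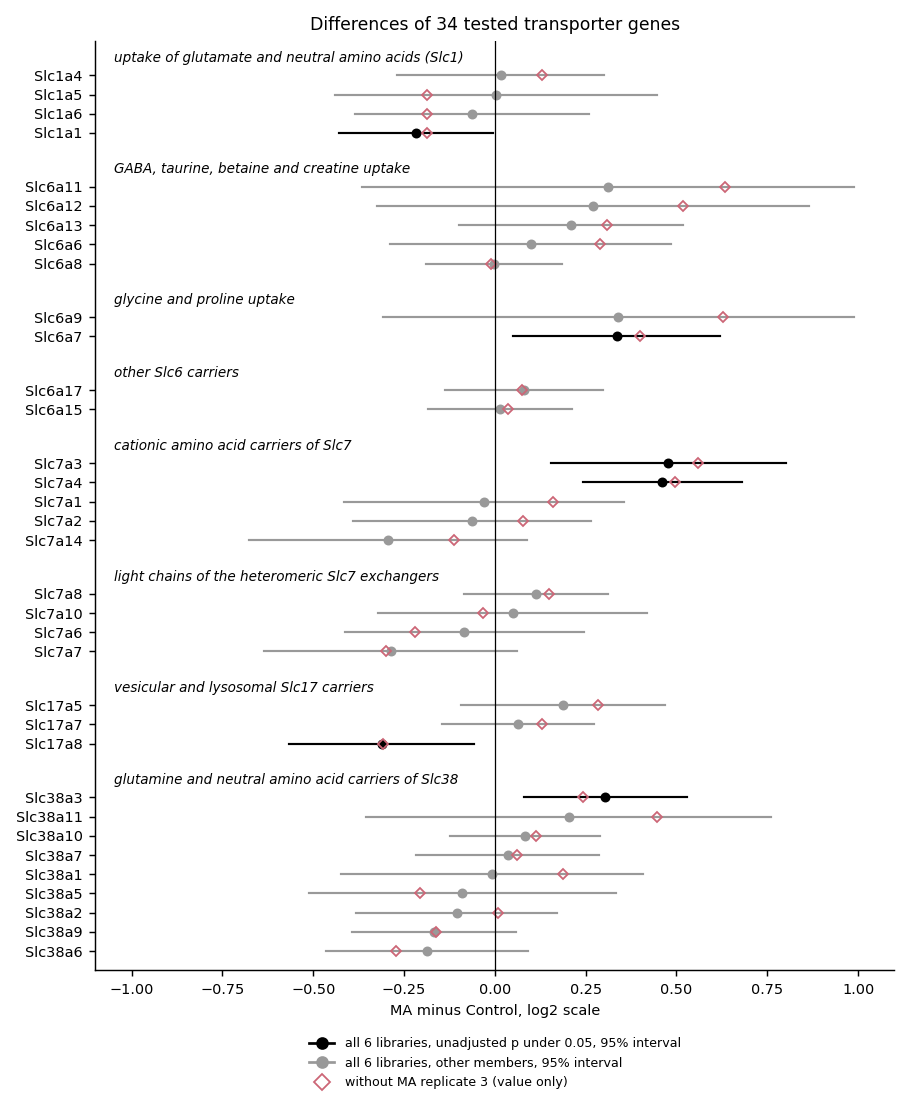
Difference of MA minus Control on the log2 scale (x axis) for 34 tested carriers, grouped by role, with 95% intervals from limma. Black marks the 6 genes with an unadjusted p under 0.05, and open diamonds give the value without MA replicate 3. The differences over all 6 libraries that are plotted lie within 0.5 of 0.

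The vesicular carriers held both the highest level and the lowest difference. Slc17a7 (chr7:45163949-45176142, plus strand, GRCm38) stood at 9.21, 9.15 and 9.14 in the Control libraries and at 9.21, 9.38 and 9.09 in the MA libraries. The groups overlapped, and the difference was 0.06 with a standard error of 0.09 and a 95% interval of -0.14 to 0.27 (limma, adjusted p = 0.863). Slc17a8 (chr10:89574020-89621253, minus strand) encodes VGLUT3, the vesicular glutamate carrier of scattered neurons whose main transmitter is often another one. Its values were 1.23, 1.17 and 1.04 in the Control libraries and 0.77, 0.91 and 0.83 in the MA libraries. All 3 MA libraries lay below all 3 Control libraries. The back-transformed mean was 1.22 ± 0.144 RPKM in Control and 0.785 ± 0.0899 RPKM in MA (SD, n = 3), and the difference was -0.31 with a standard error of 0.11 (limma, unadjusted p = 0.0227, adjusted p = 0.388). When 1 library was left out it lay between -0.36 and -0.27, with an unadjusted p of up to 0.0731, and it was -0.31 without MA replicate 3. Slc17a5, the lysosomal sialic acid carrier, had a difference of 0.19 (adjusted p = 0.655). Slc17a9, a vesicular nucleotide carrier, did not pass the filter on low values.

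The neuronal glutamate carrier of the plasma membrane lay slightly lower in MA. Slc1a1 (chr19:28835049-28913960, plus strand), which encodes EAAC1 and also takes up cysteine, stood at 4.99, 4.91 and 4.81 in the Control libraries and at 4.63, 4.80 and 4.63 in the MA libraries. The lowest Control library lay just above the highest MA library. The mean was 29.0 ± 1.81 RPKM in Control and 24.8 ± 1.77 RPKM in MA (SD, n = 3), a difference of -0.22 with a standard error of 0.09 (limma, unadjusted p = 0.0453, adjusted p = 0.466). When 1 library was left out the difference lay between -0.27 and -0.18 with an unadjusted p of up to 0.149, and without MA replicate 3 it was -0.19 (unadjusted p = 0.0695). In the annotation Slc1a1 shares 2631 exonic bases with 4430402I18Rik on the opposite strand, so reads of these genes may not be told apart if strand was not used in counting. The neutral amino acid carriers Slc1a4 and Slc1a5 and the glutamate carrier Slc1a6, known from cerebellar Purkinje cells, had differences of 0.02, 0.00 and -0.06. Of the 4 tested Slc1 genes, 1 had an unadjusted p under 0.05, where 10.4% of all tested genes did. The median difference of the 4 was -0.030.

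Among the Slc6 carriers, that of proline had the smallest p. Slc6a7, the proline carrier of glutamatergic terminals, stood at 4.09, 4.45 and 4.44 in the Control libraries and at 4.71, 4.73 and 4.53 in the MA libraries. Each MA library lay above each Control library, with MA replicate 3 the nearest to them. The mean was 19.2 ± 2.70 RPKM in Control and 24.3 ± 1.88 RPKM in MA (SD, n = 3), a difference of 0.34 with a standard error of 0.12 (limma, unadjusted p = 0.0267, adjusted p = 0.413). It was 0.40 without MA replicate 3 and 0.22 without Control replicate 1 (unadjusted p = 0.0862), and the unadjusted p also passed 0.05 without MA replicate 1 (0.0726) and without MA replicate 2 (0.0806).

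For an astrocytic GABA carrier and a glycine carrier, both named after their values were seen, the size of the difference depended on single libraries. Slc6a11 (chr6:114131241-114249952, plus strand) stood at 4.61, 4.75 and 5.23 in the Control libraries and at 5.63, 5.36 and 4.53 in the MA libraries. MA replicates 1 and 2 lay above every Control library, whereas MA replicate 3 lay below them all. The difference was 0.31 with a standard error of 0.29 (limma, adjusted p = 0.766), 0.63 without MA replicate 3 (adjusted p = 0.119), 0.08 without MA replicate 1, 0.18 without Control replicate 1 and 0.50 without Control replicate 3. Slc6a9, the glycine carrier GlyT1 of astrocytes and some glutamatergic terminals, stood at 2.90, 3.16 and 3.55 in the Control libraries and at 4.02, 3.65 and 2.97 in the MA libraries. MA replicates 1 and 2 again lay above the Control libraries and MA replicate 3 lay among the lowest. The difference was 0.34 (adjusted p = 0.732), 0.63 without MA replicate 3 (adjusted p = 0.137), 0.10 without MA replicate 1, 0.19 without Control replicate 1 and 0.51 without Control replicate 3. Slc6a9 shares 1429 exonic bases with Ccdc24 on the opposite strand, whose difference was 0.15 (adjusted p = 0.840).

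The other solutes of this group gave smaller values. The taurine carrier Slc6a6 had a difference of 0.10, which ran from -0.00 without MA replicate 2 to 0.29 without MA replicate 3 (unadjusted p = 0.0111). Slc6a13, the GABA carrier GAT-2 known from the meninges, had 0.21, from 0.13 without Control replicate 1 to 0.31 without MA replicate 3. Its neighbour Slc6a12, the betaine and GABA carrier whose gene starts 5.34 kb further on, had 0.27, from 0.03 without MA replicate 2 to 0.52 without MA replicate 3, at a level of only 0.582 RPKM. Slc6a8, the creatine carrier, was at 27.1 RPKM and its difference of -0.00 had a 95% interval of -0.19 to 0.19. Of the 6 tested carriers of GABA, taurine, betaine and creatine, 5 had a higher mean in MA, where 47.3% of all tested genes did. The median difference of the 6 was 0.24, against -0.010 for all tested genes. An unadjusted p under 0.05 was found in 0 of them, against 10.4% of all tested genes. MA replicates 1 and 2 also held the highest sums of the thalamus markers and MA replicate 3 the lowest, as given above. Other lists also had their lowest sum in MA replicate 3. The 8 enzymes of glutamate and glutamine summed to 1149 to 1218 RPKM in the Control libraries. In MA replicates 1 to 3 they summed to 1397, 1313 and 969 RPKM. The 4 GABA enzymes summed to 121 to 154 RPKM in Control and to 162, 137 and 105 RPKM in MA replicates 1 to 3. MA replicate 3 was instead the highest library for the choroid plexus, meningeal and oligodendrocyte markers and the mTORC1 genes. The part of any of these lists in the values of the GABA and glycine carriers was not tested.

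**Figure D3:**
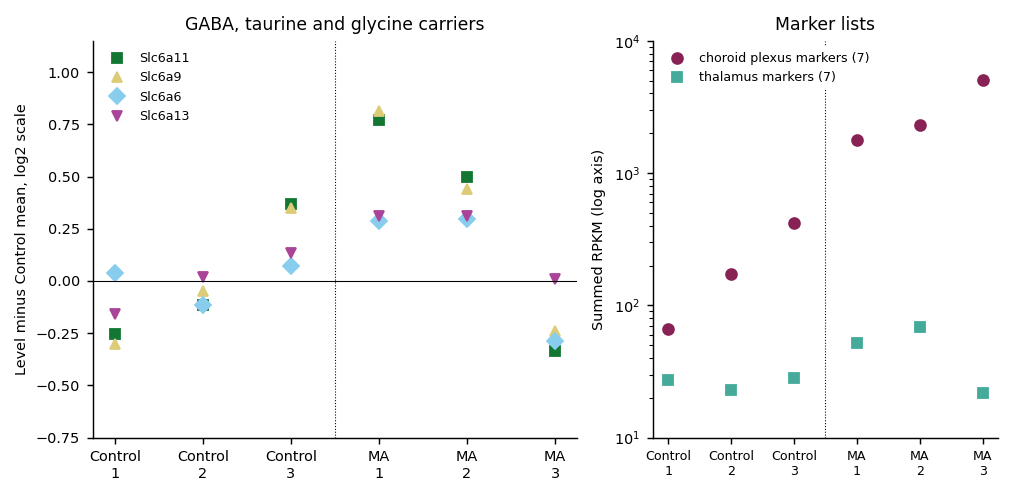
Left, the level of 4 Slc6 carriers in each library minus the Control mean on the log2 scale. Right, the summed RPKM of the choroid plexus and thalamus marker lists in each library, on a log axis. The 4 carriers and the thalamus sum lie high in MA replicates 1 and 2 and low in MA replicate 3 (except Slc6a13, at the Control mean there), whereas the choroid plexus sum is highest in MA replicate 3.

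The carriers of dopamine and serotonin, known as targets of MA, were barely present as RNA in this tissue. Slc6a3 stood at 0.0659, 0.0318 and 0.0132 in the Control libraries and at 0.0795, 0.0791 and 0.0591 in the MA libraries. Slc6a4 stood at 0.0561 and 0.0701 in Control replicates 1 and 2 and at 0.0661 and 0.0414 in MA replicates 2 and 3, and was listed at 0 in the remaining 2 libraries. Both are transcribed mainly in cell bodies of the midbrain and raphe, outside the hippocampus. Neither passed the filter, so their difference was not tested. The same held for Slc6a5, Slc6a16, Slc6a19, Slc1a7, Slc17a9, Slc38a4 and Slc38a8, all below 0.5 RPKM in each library. Of the remaining Slc6 genes, Slc6a17 stood at 6.42, 6.54 and 6.72 in the Control libraries and at 6.63, 6.64 and 6.65 in the MA libraries, a difference of 0.08 with a 95% interval of -0.14 to 0.30. All 3 of its MA values lay within the range of the Control libraries. Slc6a15, a neutral amino acid carrier of neurons, had a difference of 0.01.

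The highest differences among the carriers were those of 2 cationic carriers of Slc7. Slc7a4 (chr16:17572018-17583214, minus strand), which belongs by sequence to the cationic amino acid carriers, stood at 4.40, 4.44 and 4.30 in the Control libraries and at 4.77, 4.98 and 4.78 in the MA libraries. The lowest MA library lay well above the highest Control library. The mean was 19.9 ± 1.00 RPKM in Control and 27.8 ± 2.44 RPKM in MA (SD, n = 3), a difference of 0.46 with a standard error of 0.09, or 1.38-fold (limma, unadjusted p = 0.0014, adjusted p = 0.151). This was the smallest p among the carriers. The difference was 0.49 without MA replicate 3 (adjusted p = 0.0524), and with the sample quality weights it was 0.53 and passed the threshold (adjusted p = 0.0212). Slc7a4 shares 554 exonic bases with P2rx6 on the opposite strand, and P2rx6 had a difference of -0.11 (adjusted p = 0.832).

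Slc7a3 (chrX:101079210-101086020, minus strand), the carrier CAT-3 of arginine and lysine in brain, stood at 0.84, 0.97 and 1.14 in the Control libraries and at 1.66, 1.42 and 1.30 in the MA libraries. The groups did not overlap, at a low level: the mean was 0.987 ± 0.207 RPKM in Control and 1.77 ± 0.362 RPKM in MA (SD, n = 3). The difference was 0.48 with a standard error of 0.14 (limma, unadjusted p = 0.0098, adjusted p = 0.306), and it lay between 0.38 and 0.56 when 1 library was left out. The unadjusted p of Slc7a4 and of Slc7a3 stayed under 0.05 when any 1 of the 6 libraries was left out, with a highest value of 0.0082 for Slc7a4 and 0.0377 for Slc7a3. The other 3 cationic carriers, Slc7a1, Slc7a2 and Slc7a14, had differences of -0.03, -0.06 and -0.29, and the median of the 5 was -0.031. So 2 of the 5 had a higher mean in MA and 3 a lower one, where 47.3% of all tested genes had a higher mean.

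The light chains that pair with the heavy chain Slc3a2 showed no difference past an unadjusted p of 0.05 in any of the 4 tested. Of all tested genes, 10.4% had such a difference. Slc7a10, which exchanges D-serine, glycine and other small neutral amino acids, stood at 4.11, 4.57 and 4.16 in the Control libraries and at 4.40, 4.08 and 4.49 in the MA libraries. The groups overlapped throughout, with a difference of 0.05 and a 95% interval of -0.32 to 0.42. It shares 377 exonic bases with Lrp3 on the opposite strand. Slc7a8, a carrier of large neutral amino acids named after its values were seen, had 3 MA libraries above the 3 Control libraries by a small margin, with a difference of 0.11 (adjusted p = 0.701). Slc7a6 and Slc7a7, which exchange cationic for neutral amino acids, had differences of -0.08 and -0.29.

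**Figure D4:**
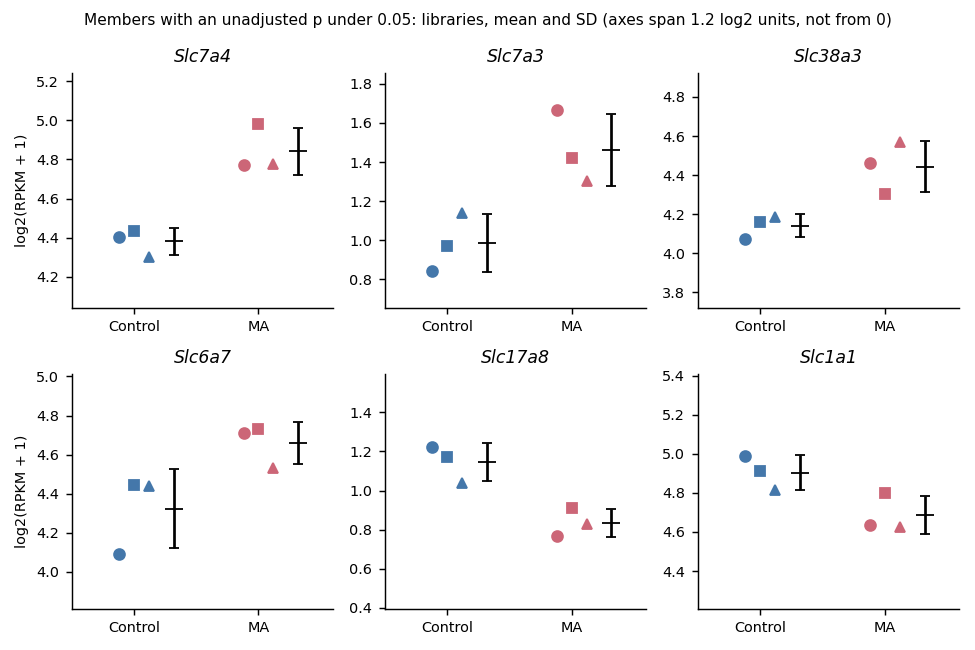
Level, log2(RPKM + 1), of the 6 carriers with an unadjusted p under 0.05 in each library (circle, square and triangle for replicates 1, 2 and 3), with the mean and SD of each group beside them. Each y axis spans 1.2 log2 units and does not start at 0. In all 6 genes the 3 MA libraries and the 3 Control libraries do not overlap.

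Of the 9 tested Slc38 carriers, 1 had an unadjusted p under 0.05, where 10.4% of all tested genes did. The median difference of the 9 was -0.0077. Slc38a3 (chr9:107650634-107669530, minus strand), the carrier SNAT3 by which astrocytes release glutamine, stood at 4.08, 4.16 and 4.19 in the Control libraries and at 4.46, 4.31 and 4.57 in the MA libraries. All MA libraries lay above all Control libraries, and MA replicate 3 was the highest. The mean was 16.7 ± 0.709 RPKM in Control and 20.8 ± 1.98 RPKM in MA (SD, n = 3), a difference of 0.30 with a standard error of 0.10 (limma, unadjusted p = 0.0147, adjusted p = 0.347). When 1 library was left out it lay between 0.24, without MA replicate 3, and 0.37, with an unadjusted p of up to 0.0556. The neuronal glutamine carriers Slc38a1 and Slc38a2, whose genes lie 44.5 kb apart on chromosome 15, had differences of -0.01 and -0.11.

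Slc38a6, the Slc38 gene of the highest level, stood at 5.07, 5.07 and 4.95 in the Control libraries and at 4.92, 4.60 and 5.01 in the MA libraries. The groups overlapped, with a difference of -0.19 and a standard error of 0.12 (limma, adjusted p = 0.652). Slc38a9, the lysosomal carrier that senses arginine for mTORC1 and was named after its values were seen, had its 3 MA libraries below its 3 Control libraries, with a difference of -0.17 (adjusted p = 0.608). For each of the 8 carriers without overlap the exact two-sided permutation p was 0.1, the smallest that 3 against 3 libraries allow.

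The genes that work with these carriers showed no called change. In each of 6 pathway lists 0 genes had an adjusted p under 0.05. Of the 7 tested genes of the other transmitter carriers, 0 had an unadjusted p under 0.05, against 10.4% of all tested genes. The smallest p values belonged to the cystine carrier Slc7a11 (difference -0.34, adjusted p = 0.602) and the vesicular monoamine carrier Slc18a2 (-0.17, adjusted p = 0.658). The glutamate carriers Slc1a2 and Slc1a3, named after their values were seen, had differences of -0.09 and -0.00 over all libraries. Without MA replicate 3 they were 0.24 and 0.23 (limma, unadjusted p = 0.0367 and 0.0274, adjusted p = 0.185 and 0.162). In that fit 23.3% of all tested genes had an unadjusted p under 0.05. Among the 9 tested partners and other amino acid carriers the count over all libraries was also 0. The mitochondrial aspartate-glutamate carrier Slc25a12 came nearest, with a difference of 0.25 (adjusted p = 0.478), followed by the heavy chain Slc3a2 with 0.11 (adjusted p = 0.683).

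The enzymes gave a similar picture over all 6 libraries, where 10.4% of all tested genes had an unadjusted p under 0.05. Of the 8 enzymes of glutamate and glutamine, 0 had an unadjusted p under 0.05. Got1, the cytosolic aspartate aminotransferase, had a difference of 0.16, and Prodh, which degrades proline, one of 0.27. None of the 4 GABA enzymes had an unadjusted p under 0.05, and the differences of Abat, which degrades GABA, and Gad1, which makes it, were 0.21 and -0.10. Of the 9 enzymes of glycine, serine and creatine, 1 had an unadjusted p under 0.05: Gldc, of the glycine cleavage system, stood at 3.25, 3.26 and 3.18 in the Control libraries and at 3.05, 2.74 and 2.79 in the MA libraries, a difference of -0.37 (adjusted p = 0.329). Of the 16 genes of mTORC1 and lysosomal amino acid sensing, 0 had an unadjusted p under 0.05, and the smallest p values were those of the lysosomal gene regulator Tfeb (-0.37, adjusted p = 0.572) and the small GTPase Rragc (-0.13, adjusted p = 0.652).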

How the data were processed

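Hippocampal RNA was sequenced as 3 Control and 3 MA libraries, each taken as 1 mouse. The study gives n = 3 per group and does not mention pooling. According to the study's methods, Hisat2 was used to align the paired reads, featureCounts to count them, and FPKM were then derived. The submitters' processing notes list Bowtie 0.12.2 and the builds mm8 and mm9, with no role. Which build and annotation the table rests on, and whether counting used strand, is not given in the sources used here. The methods and the labels name different extraction and library kits. The authors deposited a table named as RPKM whose values lie on a log2 scale (offset of 1, read from the values) and share 1 highest value, 12.3, in all 6 libraries. This transform and scaling are not described. The back-transformed sums of the libraries (487712 to 488572) and their medians over the tested genes (3.258 to 3.27 on the log2 scale) were also nearly equal. Read totals are not given, so the depth is unknown.

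Deposited log2 values were tested with limma 3.58.1 in R 4.3.3 (lmFit, eBayes with a trend), MA against Control, with Benjamini-Hochberg adjustment over 13321 genes of at least 0.5 RPKM in at least 3 libraries. The design had been set for linear RPKM, and the unit found replaced it. The p-values set each difference of group means against the spread between libraries, which limma moderates over all tested genes. All library values are given for carriers with an unadjusted p under 0.05 and for the highest gene of each role group, and other genes shown in full are said to be chosen after their values were seen. That also holds for Slc6a6, Slc6a8, Slc6a12 and Slc6a13. Members and lists were chosen with earlier results of these data known. Alternatives were pseudocounts of 0.1 and 0.01, no filter, a minimum mean of 5, median centring, quantile normalization, no trend, sample quality weights, a replicate block and leaving out each library. Median centring and quantile normalization could change little, because the deposited libraries already had nearly equal medians and sums. The values of 1 carrier are not reported here, though it stays in the counts. The test was also run on 10 simulated tables in which 200 genes were changed by 1 on the log2 scale. At an adjusted p under 0.05 a median of 75.75% of these was recovered, and 5.31% of the calls were false. Smaller changes, such as those of the carriers, were not simulated, so recovery at their size is unknown. Coordinates are from GENCODE M21 (GRCm38) and promoter windows from RefSeq (GRCm38.p6), given for location only.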

Additional observations from a re-analysis of the deposited data

How the results depend on the processing

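The count of carriers with an adjusted p under 0.05 was 0 in all alternatives except limma's sample quality weights, where it was 1 (Slc7a4, 0.53, adjusted p = 0.0212). The count at an unadjusted p under 0.05, 6 over all libraries, was 16 with these weights (45.7%, against 26.3% of all tested genes). It ran from 2 without Control replicate 1 (5.71%, against 6.22%) to 14 without MA replicate 3 (40.0%, against 23.3%). The count without overlap between groups, 8 over all libraries, was 5 with a minimum mean of 5, which tests 22 carriers (22.7%, against 16.9% of the 8549 genes tested). When 1 library was left out, it ran from 8 to 21. The 8 without MA replicate 1 were 22.9%, against 25.6% of all tested genes. The 21 without MA replicate 3 were 60.0%, against 42.9%. The median difference ran from -0.011 to 0.11 over the same fits. The difference of Slc7a10 turned to -0.14 with the weights and to -0.034, -0.011 and -0.034 without Control replicate 1, Control replicate 3 and MA replicate 3. Its values without 1 library ran from -0.034 to 0.19. That of Slc17a7 turned to -0.013 without MA replicate 2, in a range up to 0.13 (without MA replicate 3). With pseudocounts of 0.1 and 0.01 the difference of Slc7a3 was 0.78 and 0.84 and that of Slc17a8 -0.57 and -0.62. The other genes named by the rule kept their direction in all alternatives run. Beyond what each setting leaves out or weights down, the cause was not tested. Over all tested genes, 35 had an adjusted p under 0.05, against 3 without a filter, 20 with a minimum mean of 5, 586 with the weights and 0 to 257 without 1 library.

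With the replicate number as a block, 3 carriers (8.57%) had an unadjusted p under 0.05 (Slc7a4, Slc7a3 and Slc38a3) and 15 genes in all an adjusted one. In that fit 6.32% of all genes had an unadjusted p under 0.05. Once the group means were removed, Control and MA libraries of equal number had correlations of -0.197, -0.242 and -0.337 over the tested genes. Libraries of equal number thus showed no shared shift. Whether the numbers mark a pair or a batch cannot be told from this, because differences of whole libraries also enter these correlations. Depth is unknown, so no counting error can be given for genes near the filter, such as Slc6a12 and Slc17a8.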
